A study of Mus musculus with 6 samples.

Results

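The genes described here encode amino acid transporters of 6 solute carrier families, Slc1, Slc3, Slc7, Slc36, Slc38 and Slc43. They were chosen by gene symbol, and where a gene had several probe sets, the brightest by its mean of the 6 arrays stood for it. Of 19937 named genes on the array, 43 had such a symbol. One of them, Slc7a6os, is not a transporter but the gene on the strand opposite to Slc7a6, and it was set apart, which left 42 transporter genes measured by 44 probe sets. The data are 6 Affymetrix arrays of the mouse line A316, which derives from a primary adenocarcinoma and is knocked out for C/EBP alpha; the study concerns tumours of the lung. On 3 arrays the cells had received PTC-209, a compound the labels call a Bmi inhibitor, dissolved in 0.5% DMSO, and on 3 arrays they had received 0.5% DMSO alone. Both groups thus carry the Cebpa knockout and the solvent, and differ in the compound. Neither the dose nor the exposure time nor the way Cebpa was deleted is stated in the labels, and all arrays come from 1 line.

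Amino acids cross membranes mainly through carriers, which differ in the substrates they take and in what drives them. Many Slc7 proteins are light chains that reach the cell surface only when bound to a heavy chain, Slc3a2 or Slc3a1. The light chain Slc7a11 forms with Slc3a2 the exchanger known as system xc-, which imports cystine, the oxidised dimer of cysteine, and exports glutamate. Cysteine is the building block of glutathione that most often limits its synthesis, and Slc7a11 is known in tumour cells for protection against oxidative damage and ferroptosis. Several of these carriers are known targets of ATF4, the transcription factor of the response to amino acid shortage.

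Of the 42 transporter genes, 10 rose with PTC-209, 3 fell and 29 did not pass the test. A gene was said to have risen or fallen when its limma p-value, after Benjamini-Hochberg adjustment across the 28192 probe sets in the fit, was under 0.05. Among all named genes, 12.9% rose and 13.7% fell, against 23.8% and 7.14% of the transporters. The transporters were chosen with earlier results of these data known, so these shares are descriptions. At least 2-fold rises numbered 4 among the transporters, with a background of 2.23%, and at least 2-fold falls numbered 0, with a background of 4.30%. The median log2 difference, here always PTC-209 minus DMSO, was 0.08 over the transporters and 0.03 over all named genes. The groups did not overlap for 40.5% of all named genes. All 3 PTC-209 arrays lay above all 3 DMSO arrays for 12 transporters (background 21.1%) and below them for 4 (background 19.4%). In a bulk sample, a change in every cell and a change in the share of cells that express a gene cannot be told apart.

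Of the 13 genes that changed, 12 were among the brighter members. By the mean of all 6 arrays, 15 transporters lay above the median probe set, 4.33 on the log2 scale, and 27 did not. Of the 15 brighter genes, 9 rose and 3 fell, against 22.1% and 23.5% of the named genes above that level. Of the 27 dim genes, 1 rose and 0 fell, against 2.11% and 2.35% of the named genes at or below it. The log2 values of the dim genes lay between 1.78 and 4.33 on all arrays, so an absent transcript and a weakly hybridising probe set cannot be told apart for them.

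**Figure D1:**
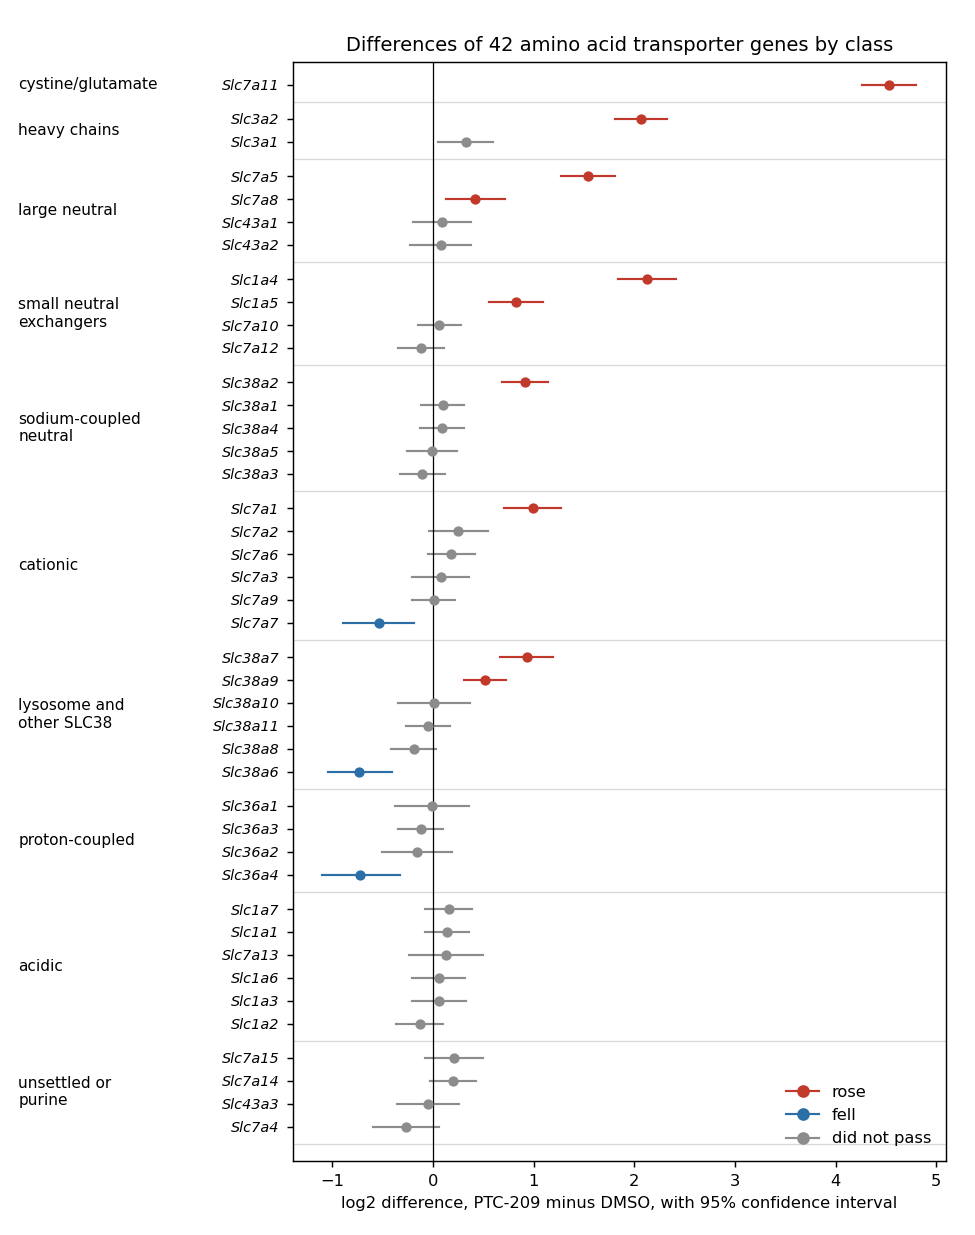
Log2 difference, PTC-209 minus DMSO, of each of the 42 transporter genes, grouped by substrate class. Points are the limma estimates from 3 arrays a group and lines their 95% confidence intervals, red for genes that rose, blue for genes that fell and grey for genes that did not pass. Slc7a11 stands at 4.53, and the next 3, Slc1a4, Slc3a2 and Slc7a5, lie between 1.54 and 2.13.

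The cystine importer Slc7a11 had log2 values of 10.87, 10.91 and 10.78 on the PTC-209 arrays, against 6.49, 6.40 and 6.09 on the DMSO arrays. The groups were far apart, and the PTC-209 arrays lay closer to each other (10.85 ± 0.07, SD, n = 3) than the DMSO arrays (6.33 ± 0.21, SD, n = 3). The level was 23.1-fold higher with PTC-209 (19.1 to 27.8, the 95% confidence interval, as for all folds that follow; adjusted p = 8.60e-08). On the log2 scale the difference was 4.53 with an SE of 0.12. This difference was first in rank among the 19937 named genes. The 250 bases before the RefSeq start of Slc7a11 are shown because they hold 2 matches, in capitals, to the 9-letter pattern TGATGNAAN, which is the core of the amino acid response element that ATF4 and C/EBP dimers are known to bind. They lie at chr3:50443614-50443863 on the minus strand of GRCm38.p6 and are written in the direction of transcription.
Slc7a11: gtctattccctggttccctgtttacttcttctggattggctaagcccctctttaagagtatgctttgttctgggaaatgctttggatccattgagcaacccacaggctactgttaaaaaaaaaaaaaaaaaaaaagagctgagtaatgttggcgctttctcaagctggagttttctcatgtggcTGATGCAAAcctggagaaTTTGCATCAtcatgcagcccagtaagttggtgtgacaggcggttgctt
The first match begins 66 bases before the start and the second, on the opposite strand, 48 bases before it, so the pair faces each other. Of all 32851 promoter windows 23, or 0.07%, held 2 or more matches, and another of these belongs to Slc7a7, a gene that fell. A match is a run of letters and was not tested for binding.

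Of the heavy chains, Slc3a2, the partner of Slc7a11 and of most other Slc7 light chains, rose and Slc3a1 did not pass. Slc3a2 had 10.54, 10.45 and 10.35 on the PTC-209 arrays, against 8.59, 8.28 and 8.27 on the DMSO arrays, with no overlap. It was 4.20-fold higher (3.50 to 5.03; log2 difference 2.07, SE 0.116; adjusted p = 2.02e-06). Slc3a1, known from kidney and intestine as the partner of Slc7a9, was dim, with values of 3.45, 3.19 and 3.15 with PTC-209 and 2.99, 3.06 and 2.77 with DMSO. Its PTC-209 arrays all lay above its DMSO arrays, but the log2 difference of 0.33 did not pass (adjusted p = 0.0866). The 250 bases before the start of Slc3a2, at chr19:8713898-8714147 on the minus strand of GRCm38.p6, are given for comparison with those of Slc7a11. They contain no match to the response element pattern and therefore no capitals.
Slc3a2: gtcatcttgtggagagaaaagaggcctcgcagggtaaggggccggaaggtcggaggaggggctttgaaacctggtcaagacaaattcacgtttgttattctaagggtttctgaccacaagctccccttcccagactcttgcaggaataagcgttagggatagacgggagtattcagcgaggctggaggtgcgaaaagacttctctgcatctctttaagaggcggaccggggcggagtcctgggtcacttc

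Among the 4 carriers of large neutral amino acids such as leucine, 2 rose and 0 fell. Slc7a5, the light chain LAT1 that exchanges glutamine for leucine and other essential amino acids, had 10.07, 9.98 and 9.88 with PTC-209 and 8.65, 8.26 and 8.39 with DMSO. All treated arrays were higher than any control array, a 2.92-fold difference (2.42 to 3.52; log2 difference 1.54, SE 0.12; adjusted p = 1.46e-05). Slc7a8, LAT2, was dim in both groups, at 3.37, 3.58 and 3.11 with PTC-209 and 2.82, 3.03 and 2.93 with DMSO. Its log2 difference of 0.42 passed narrowly (adjusted p = 0.0427), and the call was lost under 9 of 15 alternatives, among them leaving out any array except PTC-209 replicate 3. The uniporters Slc43a1 and Slc43a2, LAT3 and LAT4, were dim, with array values between 3.51 and 4.26 and log2 differences of 0.09 and 0.08, neither past the threshold.

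The small neutral exchangers, which trade alanine, serine, cysteine and glutamine, comprised 2 genes that rose and 2 dim genes that did not pass. Slc1a4, ASCT1, a carrier of serine and alanine, had 7.31, 7.0 and 7.11 on the PTC-209 arrays, against 5.08, 5.16 and 4.79 on the DMSO arrays. The groups did not overlap, and the level was 4.38-fold higher (3.58 to 5.35; log2 difference 2.13, SE 0.128; adjusted p = 3.02e-06). Slc1a5, ASCT2, a main route of glutamine into tumour cells, had 9.57, 9.48 and 9.30 with PTC-209 and 8.81, 8.52 and 8.54 with DMSO. It was 1.77-fold higher, again without overlap (1.48 to 2.13; adjusted p = 6.61e-04). Slc7a10, asc-1, and Slc7a12, asc-2, had log2 differences of 0.06 and -0.12, with array values between 1.78 and 4.15.

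Of 5 sodium-coupled carriers of glutamine and alanine at the cell surface, 1 rose, Slc38a2. Slc38a2, SNAT2, is known as the system A carrier whose mRNA increases when amino acids run short. It had 10.98, 10.87 and 10.76 with PTC-209 and 10.04, 9.90 and 9.92 with DMSO, so that every treated array exceeded every control array. The level was 1.88-fold higher (1.61 to 2.20; log2 difference 0.91, SE 0.0996; adjusted p = 1.25e-04). Slc38a1, Slc38a3, Slc38a4 and Slc38a5 lay between 2.59 and 3.66 on every array, with log2 differences of -0.11 to 0.10. The second probe set of Slc38a1 was also dim, at 2.68 with PTC-209 and 2.61 with DMSO.

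Of 6 carriers of arginine, lysine and ornithine 1 rose and 1 fell. Slc7a1, CAT1, the general arginine carrier of proliferating cells, had 8.35, 8.18 and 8.07 on PTC-209 arrays, against 7.39, 7.01 and 7.23 on DMSO arrays. It was 1.99-fold higher with no overlap (1.64 to 2.42; log2 difference 0.99, SE 0.124; adjusted p = 2.89e-04). Slc7a7, y+LAT1, a light chain of Slc3a2 that exports cationic amino acids in exchange for neutral ones, went the other way, with 5.90, 5.53 and 5.79 in PTC-209 cells and 6.59, 6.06 and 6.18 in DMSO cells. It was 1.45-fold lower (1.14 to 1.85; log2 difference -0.54; adjusted p = 0.0312), a call lost without PTC-209 replicate 2 (adjusted p = 0.12) or 3 (0.0678) or DMSO replicate 1 (0.0736) or 3 (0.0512).

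The close relative Slc7a6, y+LAT2, which does the same exchange, had 8.32, 8.12 and 8.16 with PTC-209 and 8.15, 7.92 and 7.97 with DMSO. Its groups overlapped and its log2 difference of 0.18 did not pass (confidence interval -0.05 to 0.42; adjusted p = 0.278). The remaining members of this class, Slc7a2, Slc7a3 and Slc7a9, were dim, with log2 differences of 0.25, 0.08 and 0.01. Slc7a2, CAT2, passed only when DMSO replicate 3 was left out (adjusted p = 0.0482). Slc7a6os, the opposite-strand gene, rose by 0.58 on the log2 scale (adjusted p = 0.00355), with 7.94, 7.68 and 7.99 in PTC-209 cells and 7.26, 7.37 and 7.25 in DMSO cells.

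Among lysosomal and other Slc38 carriers 2 rose and 1 fell of 6 measured. Slc38a7, SNAT7, which lets glutamine out of lysosomes, had 6.01, 5.72 and 5.72 with PTC-209 and 4.80, 5.02 and 4.85 with DMSO. The level was 1.90-fold higher without overlap (1.59 to 2.28; log2 difference 0.93, SE 0.115; adjusted p = 2.74e-04). Slc38a9, the arginine sensor of the lysosomal membrane that acts on mTORC1, had 7.33, 7.23 and 7.29 with PTC-209 and 6.84, 6.76 and 6.67 with DMSO by its brighter probe set. That is a 1.44-fold higher level (1.24 to 1.66; adjusted p = 0.00267).

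The second probe set of Slc38a9 ran in the opposite direction, at 4.54, 4.26 and 4.14 with PTC-209 and 4.80, 4.75 and 4.63 with DMSO. Its log2 difference was -0.41 (adjusted p = 0.0332), and the mean of both probe sets gave 0.06 (adjusted p = 0.781). The direction of Slc38a9 therefore depends on the probe set, although it counts among the 10 rises.

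Slc38a6, an Slc38 carrier whose substrates are less settled, was the member with the lowest log2 difference, at 4.49, 4.21 and 4.59 with PTC-209 and 5.37, 5.15 and 4.95 with DMSO. It was 1.66-fold lower, without overlap (1.33 to 2.06; log2 difference -0.73, SE 0.139; adjusted p = 0.00383). Slc38a10 had 5.58, 5.45 and 5.21 with PTC-209 and 5.75, 5.24 and 5.22 with DMSO, overlapping ranges with a log2 difference of 0.01 (confidence interval -0.35 to 0.37). Slc38a8 and Slc38a11 were dim, with log2 differences of -0.19 and -0.05.

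None of the proton-coupled carriers of small neutral amino acids rose, and 1 of 4, Slc36a4, fell. Slc36a4, PAT4, reported to carry proline and tryptophan, had 4.62, 4.74 and 4.50 with PTC-209 and 5.74, 5.01 and 5.26 with DMSO. It was 1.64-fold lower with no overlap (1.26 to 2.15; log2 difference -0.72, SE 0.171; adjusted p = 0.0127), and the call was lost without PTC-209 replicate 3 (adjusted p = 0.0513). Slc36a1, PAT1, found on lysosomes, had 5.36, 5.12 and 5.07 with PTC-209 and 5.36, 4.81 and 5.41 with DMSO. These ranges overlapped (log2 difference -0.01, confidence interval -0.38 to 0.36). Slc36a2 and Slc36a3 were dim and did not pass.

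All 6 carriers of acidic amino acids were dim and did not pass. These were the glutamate and aspartate carriers Slc1a1, Slc1a2, Slc1a3, Slc1a6 and Slc1a7, known from brain, kidney and retina, and the light chain Slc7a13. Their array values lay between 2.15 and 4.31 and their log2 differences between -0.13 and 0.16. The members with no settled amino acid substrate, Slc7a4, Slc7a14 and Slc7a15, and the purine carrier Slc43a3 also did not pass, with log2 differences of -0.27 to 0.21 and array values of 2.55 to 4.33.

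**Figure D2:**
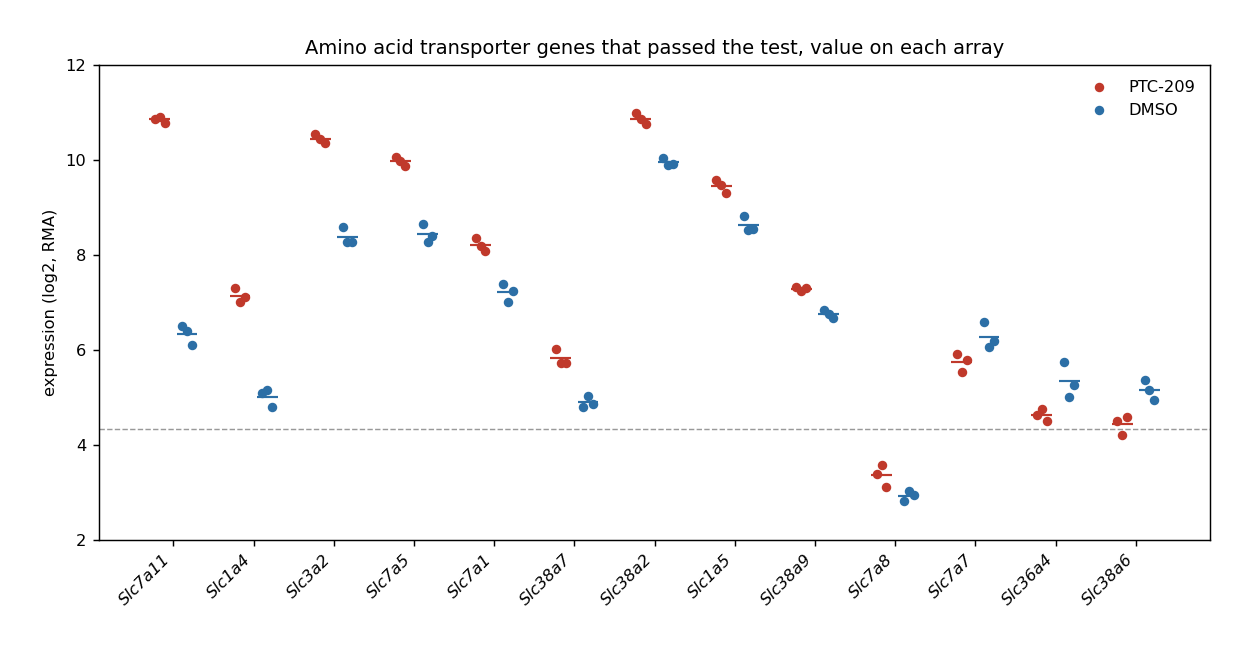
Log2 expression on each array for the 13 transporter genes that passed the test, ordered by log2 difference from the largest rise at the left to the largest fall at the right. Red points are the 3 PTC-209 arrays, blue points the 3 DMSO arrays, short lines the group means, and the dashed line the median brightness of 4.33. The groups do not overlap for any of the 13 genes, which were themselves picked by the test on these same arrays. Slc7a8 is the gene whose points all lie under the dashed line.

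Promoter windows, 250 bases before to 50 after a RefSeq start, were found for 31 of the 42 genes, 8 of them among the 10 that rose. The response element pattern TGATGNAAN, searched on both strands, was found in 3 of the 31 genes, 9.68%, against 4.50% of all 27025 genes with a window. Slc7a11 and Slc1a4 are genes that rose, while Slc7a7 is one that fell. Among the 8 rising genes with a window 2 held a match, and among the other 23 there was 1. The 4 matches below, each in capitals with 16 bases on both sides, show how the sites differ; the second Slc7a11 site is in the sequence given above, and all 4 are written 5′ to 3′ on the coding strand of GRCm38.p6, which is the minus strand for all 3 genes.
Slc7a11, chr3:50443655-50443695: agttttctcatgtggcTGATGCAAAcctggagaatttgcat
Slc1a4, chr11:20332694-20332734: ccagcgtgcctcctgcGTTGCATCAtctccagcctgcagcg
Slc7a7, chr14:54417921-54417961: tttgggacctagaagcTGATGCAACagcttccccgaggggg
Slc7a7, chr14:54418061-54418101: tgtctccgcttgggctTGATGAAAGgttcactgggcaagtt
The Slc1a4 site reads on the opposite strand and begins 5 bases before the start. The Slc7a7 sites begin 1 and 141 bases before one of its RefSeq starts. Matches thus occur both in genes that rose and in one that fell.

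A strict spelling of the core of the antioxidant response element, the site of NRF2, was in 0 of the 31 genes, against 3.45% of all genes. Looser spellings of this core were not searched, in Slc7a11 or elsewhere. Whether these promoters hold a site of NRF2 in another spelling was therefore not tested. The cyclic AMP response element TGACGTCA was in 1, Slc38a6, against 2.03% of all genes. The 3 patterns were searched separately, and no transporter gene held matches to more than 1 of them. Enhancers and more distant sites were outside the windows.

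Carriers of other families were examined in the same fit, from a list of 19 amino acid transporters of the cell surface and lysosome. Of these 4 rose and 0 fell, with a median log2 difference of 0.09. The 21.1% that rose stands beside 12.9% of all named genes, and the 0 falls beside 13.7%. Only 7 of the 19 were above the median brightness in both groups, and 12 were dim in both. Of the named genes above it 22.1% rose and 23.5% fell. Slc6a6, Slc66a1, Mfsd12 and Slc15a4 were bright in both groups and did not pass, with log2 differences of 0.22, 0.11, 0.04 and 0.06. The list was chosen with earlier results of these data known. Slc6a9, the glycine carrier GLYT1, had 8.30, 8.15 and 8.04 with PTC-209 and 6.19, 5.59 and 5.68 with DMSO, 5.09-fold higher (3.98 to 6.51; adjusted p = 5.88e-06). Ctns, which exports cystine from lysosomes, had 6.58, 6.54 and 6.47 with PTC-209 and 4.61, 4.59 and 4.63 with DMSO, 3.77-fold higher (3.28 to 4.33; adjusted p = 7.49e-07). Slc7a11 and Ctns, both carriers of cystine, thus rose. The light chain Slc7a9, which also carries cystine and was dim like its partner Slc3a1, had a log2 difference of 0.01 and overlapping groups. These genes are not a full list of cystine carriers.

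Slc17a5, a lysosomal carrier of sialic acid and acidic amino acids, was 2.41-fold higher (adjusted p = 3.22e-05). Slc6a19, a neutral amino acid carrier of kidney and intestine, rose by 0.66 on the log2 scale but was dim. Among 14 mitochondrial carriers 2 rose and 2 fell, 14.3% each way, beside 12.9% and 13.7% of all named genes. Of these carriers 10 were above the median brightness in both groups. The 2 rises and 2 falls all lay among these 10. Of the named genes above the median brightness, 22.1% rose and 23.5% fell. The rises were Slc25a38, a glycine carrier (0.60 on the log2 scale), and Slc25a44, a carrier of branched-chain amino acids (0.50). The falls were Slc25a13, which exchanges aspartate and glutamate (-0.61), and Slc25a40 (-0.81), whose close relative Slc25a39 carries glutathione.

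A list of 14 genes of cysteine supply, glutathione, thioredoxin and ferroptosis was read beside the carriers, of which 13 were measured. Of the 13, 7 rose and 0 fell, with a median log2 difference of 0.41. All but 1 were above the median brightness in both groups, so the share of 53.8% that rose stands beside 22.1% of the named genes above it, and the 0 falls beside 23.5%. These genes were listed with earlier results of these data known, so the shares are descriptions. Cth, which makes cysteine from cystathionine, had 6.61, 6.52 and 6.44 with PTC-209 and 4.39, 3.96 and 4.12 with DMSO. The log2 difference was 2.37 (adjusted p = 1.28e-06), and no fold is read from it, since the DMSO mean lay under the median brightness. Gclm, the modifier subunit of the first enzyme of glutathione synthesis, was 2.49-fold higher and its catalytic subunit Gclc 1.48-fold higher. Chac1, which breaks glutathione down, was 9.46-fold higher, and Txnrd1, thioredoxin reductase, 3.41-fold higher. Gss and Acsl4 rose by 0.51 and 0.41 on the log2 scale. Gpx4, the peroxidase that uses glutathione to protect membranes, had a log2 difference of 0.05 and did not pass (adjusted p = 0.848). Gsr, Txn1, Chac2, Cbs and Aifm2 did not pass either, with log2 differences of -0.19 to 0.10.

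**Figure D3:**
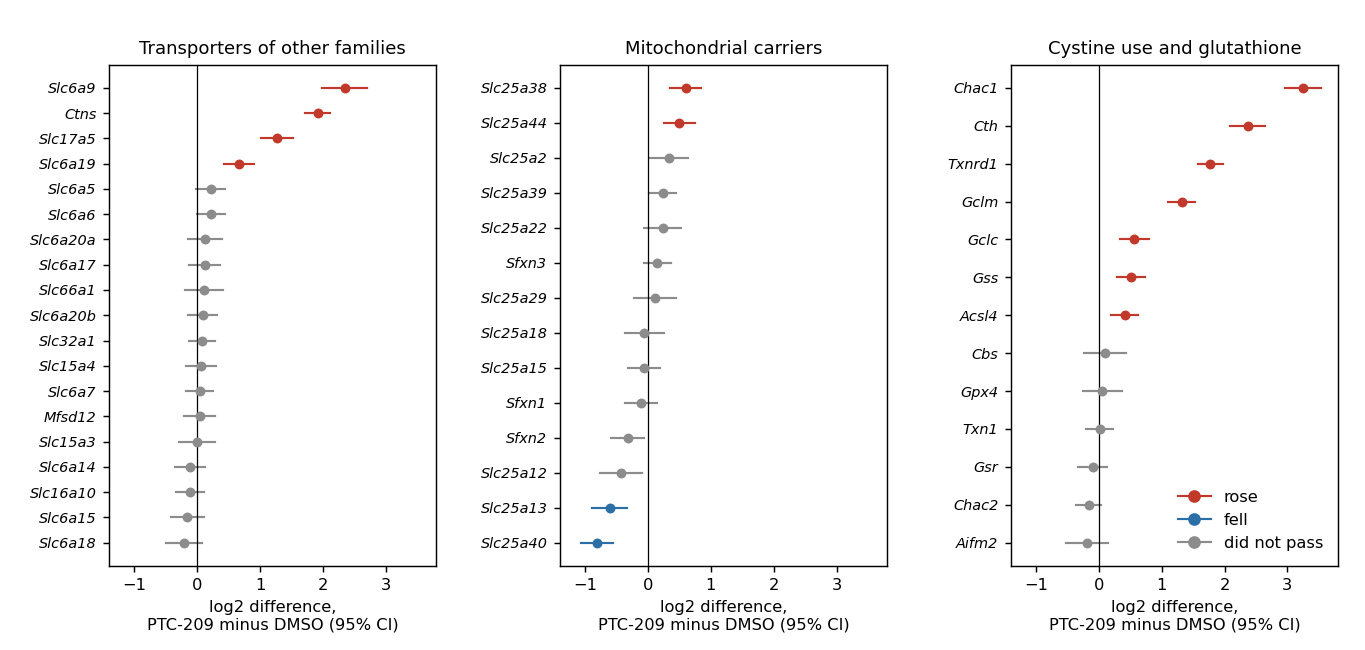
Log2 difference, PTC-209 minus DMSO, with its 95% confidence interval, for amino acid transporters of other families (19 genes), mitochondrial carriers (14 genes) and genes of cystine use and glutathione (13 genes). Red marks genes that rose, blue those that fell and grey those that did not pass. Red points outnumber blue ones in the left and right panels, and in the middle panel there are 2 of each.

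Of 29 genes that sense amino acids or belong to the response to their shortage, 11 rose and 4 fell, shares of 37.9% and 13.8%. Of these genes 26 were above the median brightness in both groups, and of the named genes above it 22.1% rose and 23.5% fell. The list was chosen with earlier results of these data known, so its shares are descriptions. On the side of amino acid shortage, Atf4 was 2.31-fold higher (adjusted p = 1.54e-05), and its target genes Ddit3 and Trib3 were 4.76-fold and 8.28-fold higher. Eif2ak4, the kinase GCN2 that senses uncharged tRNA, fell by 0.52 on the log2 scale (adjusted p = 0.013). On the side of mTORC1 at the lysosome, Rragd had 4.60, 4.59 and 4.14 with PTC-209 and 3.34, 3.06 and 3.33 with DMSO, the control values lying under the median brightness. Rragc rose by 0.75 and Rraga by 0.64 on the log2 scale. The arginine sensor Castor1 fell by 0.52, with its PTC-209 mean of 4.20 under the median brightness. The other falls of the list were Mios (-0.51) and Lamtor2 (-0.34). Its other rises were Sesn2 (0.96), Lamtor3 (0.73), Seh1l (0.72), Lamtor4 (0.50) and Mlst8 (0.44).

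Of 10 measured genes reported to regulate Slc7a11, 6 rose, 2 fell and 2 did not pass. All 10 were above the median brightness in both groups, so that these shares of 60% and 20% stand beside 22.1% and 23.5% of the named genes above it. This list was also chosen with earlier results of these data known, so the shares are descriptions. Atf4 counts in the list of amino acid sensing as well. Besides Atf4, the rises were of Atf3 (1.02 on the log2 scale), Nfe2l2, the gene of NRF2 (0.42), Bach1, a repressor of NRF2 target genes (0.73), the deubiquitinase Bap1 (0.44) and Ring1 (0.37). The falls were Keap1, the inhibitor of NRF2 (-0.71), and Bmi1 (-0.54). Bmi1 had 6.97, 6.96 and 7.09 with PTC-209 and 7.47, 7.71 and 7.47 with DMSO (adjusted p = 0.00424). Cd44 and Rnf2 did not pass, with log2 differences of -0.25 and 0.08.

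The arrays resembled each other closely, with correlations across probe sets, which are not independent, that ranged within groups over 0.992 to 0.996 and between them over 0.970 to 0.974. Cebpa was dim in both groups, at 3.79 ± 0.12 with PTC-209 and 3.65 ± 0.16 with DMSO (SD, n = 3), and since the place of its probe set relative to the deletion is unknown, this does not check the knockout. All 8 general epithelial markers were above the median brightness in both groups. Their array means were 8.63 to 8.76 with PTC-209 and 9.02 to 9.09 with DMSO. Of the 8, 3 rose (37.5%) and 4 fell (50%), beside 22.1% and 23.5% of the named genes above the median brightness. The falls were Krt7 (-1.51 on the log2 scale), Krt18 (-1.04), Krt19 (-0.99) and Krt8 (-0.83), and the rises Esrp1 (0.76), Cldn4 (0.66) and Cdh1 (0.35). However, of 9 lung epithelial markers 7 were dim in both groups, Nkx2-1 and Sftpc among them. Of leukocyte markers 1 of 6 rose, Cd68, a lysosomal membrane protein, at 10.03 with PTC-209 and 7.42 with DMSO. The array means of the 6 markers lay between 4.35 and 4.45 with PTC-209 and between 3.83 and 3.98 with DMSO, and without Cd68 between 3.23 and 3.33 with PTC-209 and between 3.12 and 3.30 with DMSO. Ptprc, the defining leukocyte marker, was dim at 3.06 with PTC-209 and 3.17 with DMSO. Of endothelial markers 1 of 5 fell, Cdh5 (-1.33 on the log2 scale), which was bright in both groups, at 8.15 with PTC-209 and 9.48 with DMSO. Without Cdh5 the array means of these markers lay between 2.90 and 3.02 with PTC-209 and between 2.76 and 2.88 with DMSO. Pecam1 was dim, at 3.51 with PTC-209 and 3.39 with DMSO, and 0 of 7 fibroblast markers passed. For comparison, 12.9% of all named genes rose and 13.7% fell.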

How the data were processed

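RNA of 6 samples of A316 cells, 3 a group, was measured on 1 array each. Groups and replicate numbers came from the sample titles; the free-text descriptions, which speak of embryos, contradict them and were not used. The values are log2 expression per probe set made by the authors with RMA, per the submitters' processing notes (version not given in the sources used here), and the log2 scale was read from the deposited values. Array medians lay between 4.07 and 4.14, since RMA equalises arrays, so a shift common to most genes would be hidden. Precision is limited by 3 arrays a group. Nothing states that these were separate cultures, so p-values measure the spread between samples, which may be technical.

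Of 34760 probe sets, a control block of 6568 was left out (a run of consecutive identifiers with no annotation). Of the other 28192, 21640 have 1 symbol in the platform annotation, 1321 several and 5231 none; only single-symbol sets name a gene. limma 3.58.1 in R 4.3.3 (lmFit, eBayes, treatment as the only term; 4 residual and 5.27 prior degrees of freedom) was fitted to all 28192, tested first on simulated data. Promoters are RefSeq windows on GRCm38.p6. Values per array were planned for members past the threshold by at least 1 on the log2 scale and for the 2 brightest that did not pass. The other called members were added, as were Slc3a1, Slc36a1, Slc7a6os and the second probe set of Slc38a9. From other lists, members past the threshold by at least 1 were to be named, at most 4 a list; others were named after their values were seen. Members and lists were chosen with earlier results of these data known. Substrate classes come from general knowledge. Replicate numbers were not treated as pairs. Correlations of deviations were 0.23, 0.07 and 0.07 between same-numbered arrays and -0.16 to 0.10 between differently numbered ones. Pairing was thus neither shown nor excluded. The 16 alternatives are named in the closing section.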

Additional observations from a re-analysis of the deposited data

How the results depend on the processing

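Calls on 9 of the 13 transporters held under all 16 alternatives: Slc7a11, Slc3a2, Slc7a5, Slc1a4, Slc1a5, Slc38a2, Slc7a1, Slc38a7 and Slc38a6. They comprised 3 rescalings (cyclic loess, a second quantile normalization, centring on array medians) and 4 changes of the model (array weights, the replicate block, a test against a fold change of 1.2, a prior both robust and trended). In another 3 the probe sets differed (dim ones removed, control block included, probe sets of a gene averaged), and in 6 an array was left out. Without dim probe sets, 15 members had a value. The count of rises was 8 to 10 throughout and the log2 difference of Slc7a11 4.41 to 4.61. Against a fold change of 1.2, the calls on Slc36a4, Slc38a9, Slc7a7 and Slc7a8 were lost (adjusted p = 0.0925, 0.0787, 0.301 and 0.588). Keeping the control block ended those on Slc7a7 (0.0737) and Slc7a8 (0.0858). Falls numbered 1 when a fold change above 1.2 was required, and 1 to 3 when an array was left out (1 without PTC-209 replicate 3). With the replicate block, 10 rose and 3 fell; since the numbers were not shown to pair samples, this block only marks shared numbering. Over all named genes, calls numbered 5306, and 2880 when a fold change above 1.2 was required. Cyclic loess gave 2352 rises and 3125 falls, against 2565 and 2741. The median of all named genes lay between -0.005 and 0.035.

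Among members that did not pass, signs changed near 0. Slc36a1 was 0.04 after quantile normalization and 0.01 with array weights, Slc38a10 -0.01 with cyclic loess, and Slc7a9 -0.02 with either normalization. With an array left out, log2 differences ran from -0.04 to 0.17 for Slc1a3, -0.06 to 0.14 for Slc1a6, -0.20 to 0.10 for Slc36a1, -0.08 to 0.18 for Slc38a10, -0.09 to 0.01 for Slc38a11, -0.10 to 0.07 for Slc38a5, -0.02 to 0.18 for Slc43a1, -0.04 to 0.20 for Slc43a2, -0.18 to 0.11 for Slc43a3, -0.03 to 0.31 for Slc7a13 and -0.05 to 0.06 for Slc7a9. Dim genes near the background limit what could be detected, and differences of 27 of the 42 members rest on such values.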
